A study of Mus musculus with 6 samples.

Results

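Expression of 10 marker genes of the liver endothelium was followed through 6 liver transcriptomes. They were the rows of the deposited count table whose gene name is Stab1, Stab2, Lyve1, Clec4g, Oit3, Dnase1l3, Gpr182, Kdr, Pecam1 or Vwf, 10 of 43346 genes, and all 10 had enough counts to be tested. Of the 6 libraries, 3 came from livers labelled as knockdown with an adeno-associated virus 8 (AAV8) short hairpin RNA (shRNA) against S100a11, numbered 2, 3 and 2600, and 3 from control livers with a scrambled shRNA, numbered 28, 30 and 31. All 6 were given the FFC diet, in a dietary model of metabolic dysfunction-associated steatohepatitis (MASH). The promoter driving the hairpin, the viral dose, and the strain, sex and age of the mice were not found in the labels. Since nothing in the labels ties each sample to an animal of its own, the p-values reflect only how these samples spread, which may be technical. AAV8 is known to enter mainly hepatocytes, and S100a11 encodes an S100 protein that binds calcium.

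Liver sinusoidal endothelial cells line the capillaries of the liver. Unlike other endothelium they have open pores, no continuous basement membrane, and a set of scavenger receptors and lectins that clear waste molecules from blood. In fibrosing liver they are known to lose pores and scavenger receptors and to take on features of ordinary vessels, a change called capillarisation, for which von Willebrand factor and surface CD31 (encoded by Pecam1) are common markers. The 7 sinusoidal members compared here are Stab1, Stab2, Lyve1, Clec4g, Oit3, Dnase1l3 and Gpr182, and the 2 vascular members are Vwf and Pecam1. Kdr is active in both kinds of endothelium.

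Among the 10 members, Clec4g was higher and Lyve1 lower in the S100a11 shRNA livers, and the other 8 missed the threshold (adjusted p under 0.05 in edgeR, over all 19352 genes tested). The vascular markers Vwf and Pecam1 were among the 8. The 1 of 10 members higher and 1 of 10 lower stand beside 5.82% and 8.28% of all tested genes in those directions, so the counts are close to the background. The background moves with the setting: it was 2.05% higher and 20.5% lower with library totals alone, and 5.47% and 8.35% with limma voom. DESeq2 called 8.38% higher and 19.4% in either direction. At an adjusted p of 0.1, 9.4% of genes were higher, and without a filter 5.48% were lower. Without S100a11 shRNA library 2, 3 or 2600 in turn, 9.13%, 2.16% and 4.07% of genes were higher and 12.0%, 2.96% and 6.29% lower. Without scrambled library 28, 30 or 31 in turn, 2.55%, 1.12% and 2.1% were higher and 5.18%, 2.54% and 3.47% lower. The 3 S100a11 shRNA libraries lay wholly above the 3 scrambled libraries for 5 members (Clec4g, Oit3, Dnase1l3, Gpr182 and Kdr) and wholly below them for Lyve1, while 16.5% of all tested genes lay apart upward and 18.1% downward (34.7% either way, against 14.1% called). The median log2 change of the 10 members was 0.36, against 0.04 for all genes tested. With library totals alone it was -0.013, against -0.32 for all genes. Levels are given as CPM, a gene's count scaled to the size of its library with TMM factors. In RNA of whole liver, fewer cells of a type and less RNA per cell cannot be told apart.

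The libraries held 53517387 to 78091845 counts, and each member had 732 to 26181 counts in a library. S100a11 itself stood at 16.0, 3.55 and 3.41 CPM in S100a11 shRNA libraries 2, 3 and 2600, against 15.9, 22.9 and 30.0 CPM in scrambled libraries 28, 30 and 31. The library labelled S100a11 shRNA 2 was thus level with the lowest scrambled library, and the log2 change of -1.57 ± 0.56 (SE) missed the threshold (edgeR adjusted p = 0.095; exact two-sided permutation p = 0.2, where 0.1 is the smallest possible with 3 against 3). Omitting that library gave S100a11 a log2 change of -2.75, which passed (edgeR adjusted p = 0.00044). Over all genes, its counts were also nearer to each scrambled library (chi-square per gene of 158 to 223) than to S100a11 shRNA libraries 3 and 2600 (235 and 349). That measure uses raw counts and weighs abundant genes most. Summed cholangiocyte and monocyte-derived macrophage markers (lists below) were 140.2 and 220.1 CPM in library 2, far under the lowest scrambled sums of 467 and 593 CPM. Its summed sinusoidal members (727 CPM) lay in the scrambled range (713 to 813 CPM). Each member's change is therefore also given without library 2. Scaling matters too: with library totals alone the median over all genes lay at -0.32, on the log2 scale, and not at 0.04 as with TMM. The non-coding gene Gm26917 took 3.99% to 10.8% of counts in the S100a11 shRNA libraries and 3.16% to 4.42% in the scrambled ones. The hepatocyte gene Alb, encoding albumin, was abundant in all 6 libraries (18116 to 31083 CPM).

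**Figure D1:**
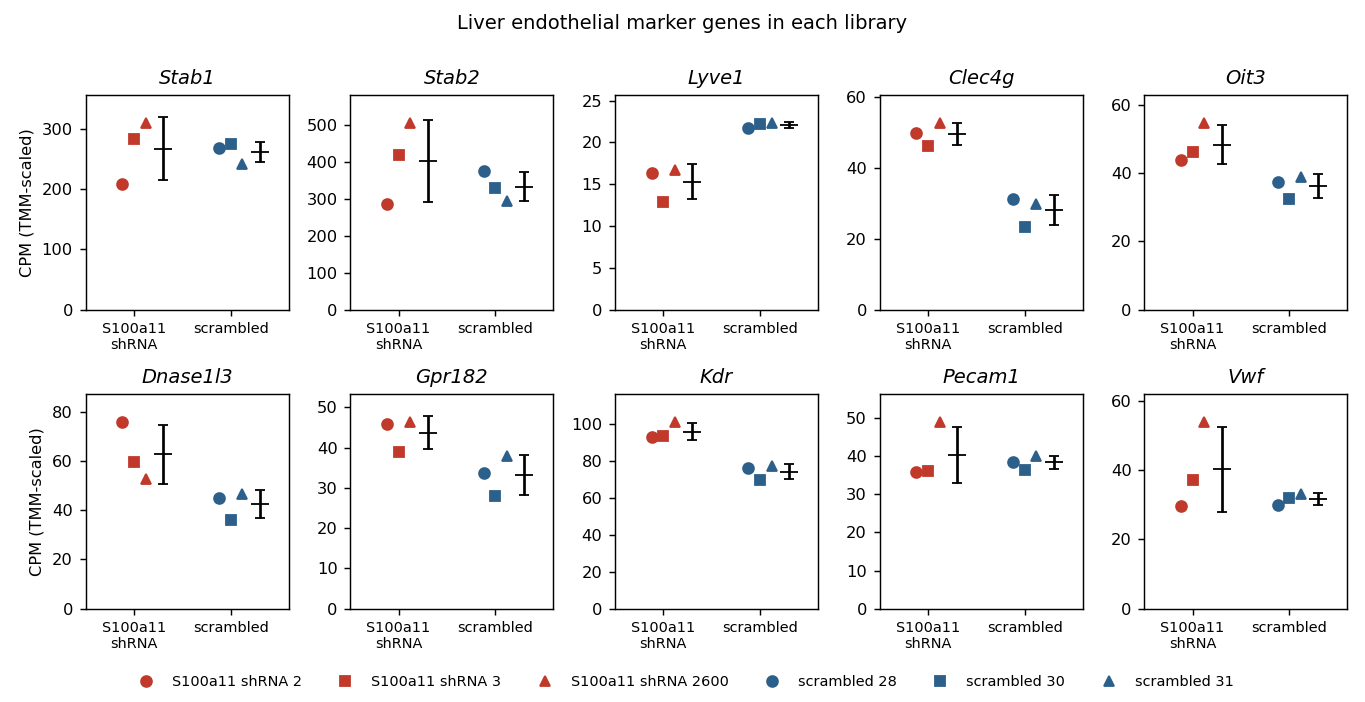
TMM-scaled CPM (y axis, from 0) of each of the 10 members in the 3 S100a11 shRNA libraries (red, left) and the 3 scrambled libraries (blue, right); black bars are the mean and SD of 3 libraries. Clec4g, Oit3, Dnase1l3, Gpr182 and Kdr show no overlap with the S100a11 shRNA group above, Lyve1 none with it below, and Stab1, Stab2, Pecam1 and Vwf overlap.

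Clec4g encodes LSECtin, a C-type lectin of sinusoidal endothelium that binds sugars on pathogens and immune cells. It lies on the minus strand at chr8:3707064-3720651 (mm10) and is ENSMUSG00000074491. It stood at 49.97, 46.4 and 52.8 CPM in S100a11 shRNA libraries 2, 3 and 2600, against 31.4, 23.4 and 29.9 CPM in scrambled libraries 28, 30 and 31. Every S100a11 shRNA library exceeded every scrambled one, by 15.0 CPM at the nearest pair. Clec4g rose 1.76-fold, a log2 change of 0.82 ± 0.15 (SE; 49.7 ± 3.20 against 28.2 ± 4.26 CPM, SD, n = 3 each; edgeR adjusted p = 0.011). With library totals alone the log2 change was 0.46 (adjusted p = 0.046). It was 0.78 when the library labelled S100a11 shRNA 2 was omitted (adjusted p = 0.0082). The call was lost without scrambled library 30, which had the lowest Clec4g of the 6 (log2 change 0.70, adjusted p = 0.055). The other 5 omissions kept it, with adjusted p values of 0.0082 to 0.038.

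Promoter sequence was available from RefSeq (GRCm38.p6) for 4 of the 10 members, Clec4g, Stab1, Stab2 and Kdr. Those of Clec4g, which rose, and of the stabilins Stab1 and Stab2, whose groups overlapped, are shown for comparison, limited to bases upstream of the annotated gene. Capitals mark 6-base words searched on both strands in the 250 bases before the start: for GATA factors AGATAA and AGATAG as well as the forms TGATAA and also TGATAG, for ETS factors AGGAAG and also CGGAAG, and for KLF factors CCACCC. Endothelial genes are known to be regulated by ETS factors such as ERG, and Gata4 is a known regulator of sinusoidal identity.
Clec4g: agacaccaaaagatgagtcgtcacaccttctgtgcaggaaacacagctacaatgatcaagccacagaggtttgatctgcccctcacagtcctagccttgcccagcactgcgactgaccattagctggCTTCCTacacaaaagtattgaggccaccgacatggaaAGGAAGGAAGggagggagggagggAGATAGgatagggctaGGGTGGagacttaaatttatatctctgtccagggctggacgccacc
Stab1: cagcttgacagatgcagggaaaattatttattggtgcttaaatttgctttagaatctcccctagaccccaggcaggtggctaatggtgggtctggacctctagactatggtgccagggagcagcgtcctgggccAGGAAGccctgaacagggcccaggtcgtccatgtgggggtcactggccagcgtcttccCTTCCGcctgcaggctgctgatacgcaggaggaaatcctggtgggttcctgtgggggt
Stab2: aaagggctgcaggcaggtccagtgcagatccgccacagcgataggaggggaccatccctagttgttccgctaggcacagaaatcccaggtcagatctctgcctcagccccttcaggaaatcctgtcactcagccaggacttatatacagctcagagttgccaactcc
The Clec4g stretch (chr8:3720652-3720901, minus strand) held 3 AGGAAG words, of which 2 overlap, an AGATAG 57 to 62 bases before the start and a CCACCC on the opposite strand. The Stab1 stretch (chr14:31168642-31168891, minus strand) held 1 AGGAAG and 1 CGGAAG, the CGGAAG on the opposite strand. The Stab2 stretch (chr10:87008026-87008192, minus strand) held none of the words, and the 1 AGGAAG in its window lay 35 to 40 bases before the start, inside the annotated gene. Over 32851 promoter windows in the table, 39.2% held an ETS word, 26.5% a GATA word and 28.1% the KLF word, so matches to each set of words are common. A match in these letters is a description and not a binding site.

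Lyve1 encodes a hyaluronan receptor of lymphatic and sinusoidal endothelium that some tissue macrophages also carry (ENSMUSG00000030787, minus strand, chr7:110850607-110862953). It stood at 16.3, 12.9 and 16.6 CPM in S100a11 shRNA libraries 2, 3 and 2600, against 21.7, 22.2 and 22.3 CPM in scrambled libraries 28, 30 and 31. The scrambled values lay within a factor of 1.03 of each other and all above the S100a11 shRNA values. Lyve1 fell 1.44-fold, a log2 change of -0.53 ± 0.15 (SE; 15.3 ± 2.06 against 22.1 ± 0.34 CPM, SD, n = 3 each; edgeR adjusted p = 0.045). With library totals alone the log2 change was -0.89 (adjusted p = 0.0055), while its distance from the all-gene median was -0.57 with either scaling. Without the library labelled S100a11 shRNA 2 the call held (-0.61, adjusted p = 0.023). Leaving out library 3, 2600, 28, 30 or 31 ended it, with log2 changes of -0.42 to -0.60 and adjusted p values of 0.058 to 0.16. Without a filter on low counts the adjusted p was 0.065.

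The 2 stabilins, large scavenger receptors with fasciclin and EGF-like repeats, did not pass the threshold. Stab1 binds modified lipoproteins and the matrix protein SPARC and is also found on macrophages (ENSMUSG00000042286, minus strand, chr14:31139013-31168641). It stood at 209, 283 and 310.3 CPM in S100a11 shRNA libraries 2, 3 and 2600, against 269, 275 and 242 CPM in scrambled libraries 28, 30 and 31. The scrambled values fell inside the range of the S100a11 shRNA values, and the log2 change was 0.03 ± 0.17 (SE, edgeR adjusted p = 0.93), with a sign that turned with library totals alone (-0.34). Omitting library 2 made it 0.15 (adjusted p = 0.50). Stab2, the main receptor for clearing hyaluronan from blood, lies on the minus strand at chr10:86841198-87008025 (ENSMUSG00000035459). It stood at 286, 418 and 506 CPM in S100a11 shRNA libraries 2, 3 and 2600, against 376, 329.9 and 295 CPM in scrambled libraries 28, 30 and 31. The S100a11 shRNA libraries held both the lowest and the highest value, and the log2 change was 0.27 ± 0.22 (SE, edgeR adjusted p = 0.44), or -0.10 with library totals alone. It was 0.44 without the library labelled S100a11 shRNA 2 (adjusted p = 0.095) and 0.06 without library 2600.

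Oit3, Dnase1l3 and Gpr182 lay apart between the groups but missed the threshold. Oit3, a zona pellucida domain protein of the liver (ENSMUSG00000009654, minus strand, chr10:59422958-59441778), stood at 43.7, 46.3 and 54.6 CPM in S100a11 shRNA libraries 2, 3 and 2600, against 37.4, 32.3 and 38.9 CPM in scrambled libraries 28, 30 and 31. Its log2 change was 0.41 ± 0.14 (SE, edgeR adjusted p = 0.090). Omitting the library labelled S100a11 shRNA 2 made it 0.45, which passed (adjusted p = 0.048). With library totals alone it was 0.05.

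Dnase1l3, a secreted nuclease that digests DNA in chromatin and cell debris (ENSMUSG00000025279, minus strand, chr14:7964533-7994573), stood at 75.8, 59.5 and 52.7 CPM in S100a11 shRNA libraries 2, 3 and 2600, against 44.9, 36.1 and 46.5 CPM in scrambled libraries 28, 30 and 31. The log2 change was 0.56 ± 0.17 (SE, edgeR adjusted p = 0.062), and DESeq2 called it (adjusted p = 0.033). It was 0.37 without library 2 (adjusted p = 0.094) and 0.21 with library totals alone (adjusted p = 0.43). Dnase1l3 was the only member with its highest S100a11 shRNA value in library 2. Gpr182, a chemokine-scavenging receptor of sinusoidal and lymphatic endothelium (ENSMUSG00000058396, minus strand, chr10:127747276-127751732), stood at 45.8, 38.9 and 46.3 CPM in S100a11 shRNA libraries 2, 3 and 2600, against 33.6, 28.0 and 38.0 CPM in scrambled libraries 28, 30 and 31. The nearest pair, library 3 and scrambled library 31, differed by 0.87 CPM, and the log2 change was 0.39 ± 0.15 (SE, edgeR adjusted p = 0.12). It was 0.33 without library 2 (adjusted p = 0.16) and 0.04 with library totals alone. Gpr182 shares 74 exon bases with Zbtb39 on the opposite strand, which had a log2 change of 0.20 (adjusted p = 0.42), and how strand was handled in counting is unknown here.

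Kdr encodes VEGF receptor 2, the main signalling receptor for VEGF-A on endothelium (ENSMUSG00000062960, minus strand, chr5:75932827-75978458). It stood at 92.7, 93.1 and 101 CPM in S100a11 shRNA libraries 2, 3 and 2600, against 76.0, 69.3 and 76.8 CPM in scrambled libraries 28, 30 and 31. The groups were apart and the spread within each was small, but the log2 change of 0.37 ± 0.12 (SE) missed the threshold (edgeR adjusted p = 0.078; DESeq2 adjusted p = 0.039). It was 0.36 without library 2 (adjusted p = 0.066) and 0.01 with library totals alone.

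The 2 vascular members missed the threshold, with groups that overlapped. Vwf, the platelet-binding protein that endothelium stores in Weibel-Palade bodies (ENSMUSG00000001930, plus strand, chr6:125546774-125686679), stood at 29.8, 37.2 and 53.9 CPM in S100a11 shRNA libraries 2, 3 and 2600, against 29.8, 32.0 and 33.1 CPM in scrambled libraries 28, 30 and 31. Library 2600 alone was far above the scrambled range and library 2 lay at its lower end. The log2 change was 0.35 ± 0.21 (SE, edgeR adjusted p = 0.30), 0.06 without library 2600, 0.49 without library 2 (adjusted p = 0.066) and -0.03 with library totals alone. Pecam1, encoding the junctional adhesion molecule CD31 of endothelium, platelets and leukocytes (ENSMUSG00000020717, minus strand, chr11:106654217-106750628), stood at 36.0, 36.3 and 48.96 CPM in S100a11 shRNA libraries 2, 3 and 2600, against 38.5, 36.5 and 40.1 CPM in scrambled libraries 28, 30 and 31. Its log2 change was 0.07 ± 0.15 (SE, edgeR adjusted p = 0.79), 0.12 without library 2 (adjusted p = 0.62) and -0.30 with library totals alone.

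**Figure D2:**
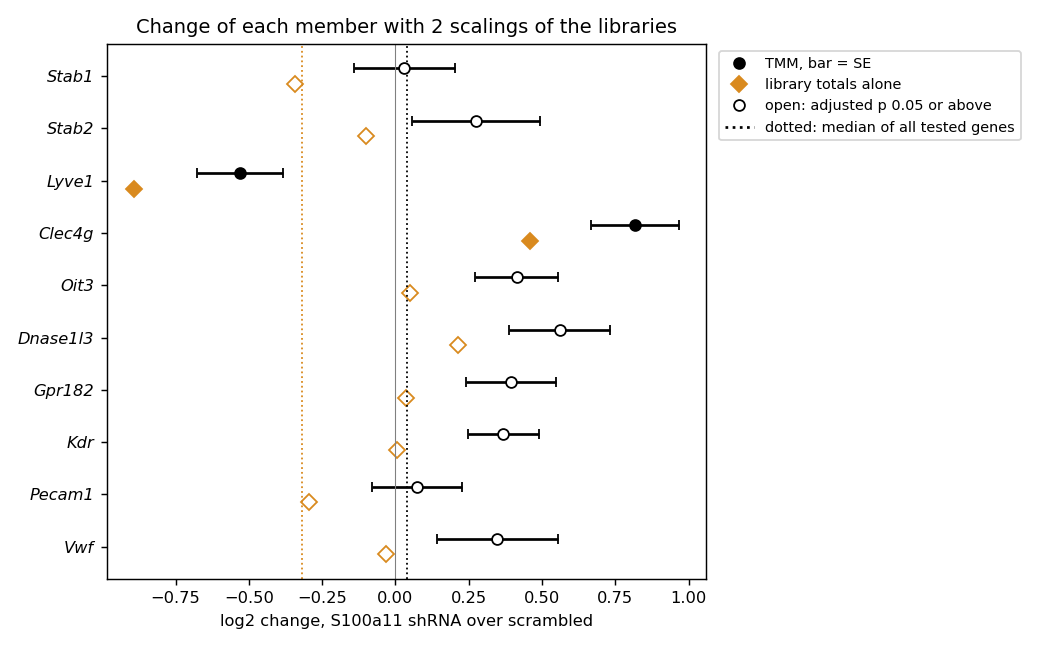
Log2 change (x axis, S100a11 shRNA over scrambled) of each member with TMM factors (black circles, bars are SE) and with library totals alone (orange diamonds); filled symbols passed an adjusted p of 0.05, and dotted lines mark the median of all tested genes at 0.04 and -0.32. Clec4g and Lyve1 are filled with both scalings, on opposite sides of the dotted lines, and the signs of Stab1, Stab2, Pecam1 and Vwf turn with library totals alone.

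The spread within the S100a11 shRNA group was itself uneven. Library 2600 held 1.81 times the Vwf, 1.77 times the Stab2, 1.48 times the Stab1 and 1.36 times the Pecam1 of library 2, on the CPM scale. For Dnase1l3 the same ratio was 0.70, while for Gpr182, Lyve1, Clec4g and Kdr it lay between 1.012 and 1.09. The members with the longest deposited lengths, Vwf, Stab1 and Stab2 (16064, 10288 and 8757 bases), were the 3 with the largest ratios, and library 2600 also had the highest share of Gm26917. Their part in the result was not tested. Among scrambled libraries the highest value of a member was 1.03 to 1.36 times the lowest.

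Per kilobase of deposited length, Stab2 was the most abundant member in both groups (46.1 ± 12.6 CPM per kilobase in S100a11 shRNA livers and 38.1 ± 4.62 in scrambled livers, SD, n = 3 each) and Vwf the least (2.51 ± 0.77 and 1.97 ± 0.10). Stab1 followed with 26.0 ± 5.07 CPM per kilobase in S100a11 shRNA livers and 25.5 ± 1.68 in scrambled livers. Clec4g ranked 3 in the S100a11 shRNA livers (20.2 ± 1.30) and 4 in the scrambled livers (11.5 ± 1.73), in each case next to Oit3 (17.3 ± 2.04 and 13.0 ± 1.25), whose range overlapped that of Clec4g. Kdr, Dnase1l3 and Gpr182 lay at 11.04 to 13.1 CPM per kilobase on average in S100a11 shRNA livers and 8.25 to 10.2 in scrambled livers. Dnase1l3 and Gpr182 overlapped in range in both groups. Lyve1 stood at 5.87 ± 0.79 CPM per kilobase in S100a11 shRNA livers and 8.47 ± 0.13 in scrambled livers. It ranked 9, overlapping Pecam1 (6.49 ± 1.19), in the S100a11 shRNA livers, and ranked 6, above Pecam1 (6.16 ± 0.29) with no overlap, in the scrambled livers.

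**Figure D3:**
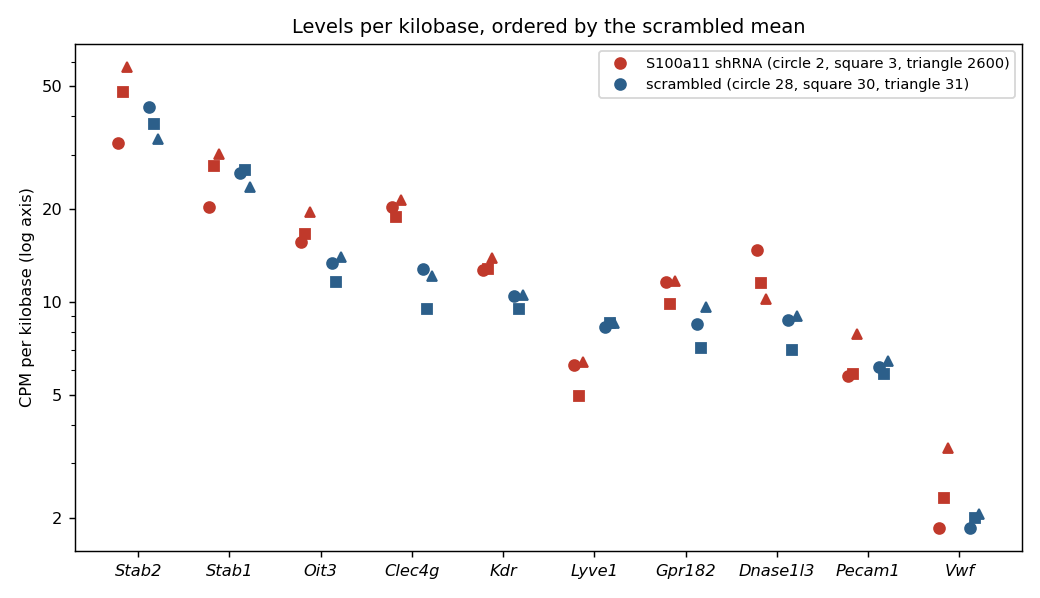
CPM per kilobase (y axis, log scale) of the 10 members in each S100a11 shRNA library (red) and each scrambled library (blue), ordered by the scrambled mean. Stab2 and Stab1 lie at the top and Vwf at the bottom in both groups, and Lyve1 is the member whose red points lie below its blue points.

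A ratio of 2 genes within a library does not depend on how libraries are scaled, so sinusoidal members were set against Pecam1 and Vwf in this way, as a description with no test. The geometric mean of the 7 sinusoidal members per kilobase was 2.70, 2.69 and 2.26 times Pecam1 in S100a11 shRNA libraries 2, 3 and 2600, against 2.30, 2.13 and 2.16 times in scrambled libraries 28, 30 and 31. Against Vwf it was 8.42, 6.77 and 5.30 times in the S100a11 shRNA libraries and 7.67, 6.27 and 6.74 times in the scrambled libraries. The groups overlapped for both, so the sinusoidal set as a whole did not separate from either vascular marker. Single members did: the ratio to Pecam1 lay apart upward for Clec4g and Oit3 and apart downward for Lyve1, and overlapped for the other 4. Clec4g, Oit3 and Lyve1 also lay apart on their own, as did 34.7% of all tested genes, while Pecam1 overlapped.

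Clec4g was 3.51, 3.23 and 2.73 times Pecam1 per kilobase in S100a11 shRNA libraries 2, 3 and 2600, against 2.06, 1.62 and 1.89 times in scrambled libraries 28, 30 and 31. Lyve1 was 1.08, 0.85 and 0.81 times Pecam1 in the S100a11 shRNA libraries, against 1.35, 1.45 and 1.33 times in the scrambled libraries. Against Vwf the Clec4g ratio overlapped between groups (6.39 to 10.95 and 4.77 to 6.87), and of the 7 sinusoidal members only Lyve1 lay apart (1.90 to 3.38 and 4.15 to 4.48). In all 9 of the ratios of Lyve1 to another member, the S100a11 shRNA libraries lay below the scrambled ones. Clec4g lay above in 7 of its 9 ratios and overlapped for Dnase1l3 and Vwf. The ratios of a member share its numerator, and the groups of Lyve1 and Clec4g were already apart, so these counts largely restate those changes. No share over pairs of all genes was computed. Among the 45 pairs of members the group means differed most for Clec4g over Lyve1, with a ratio of 3.24, 3.80 and 3.36 per kilobase in S100a11 shRNA libraries 2, 3 and 2600, against 1.53, 1.11 and 1.42 per kilobase in scrambled libraries 28, 30 and 31.

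**Figure D4:**
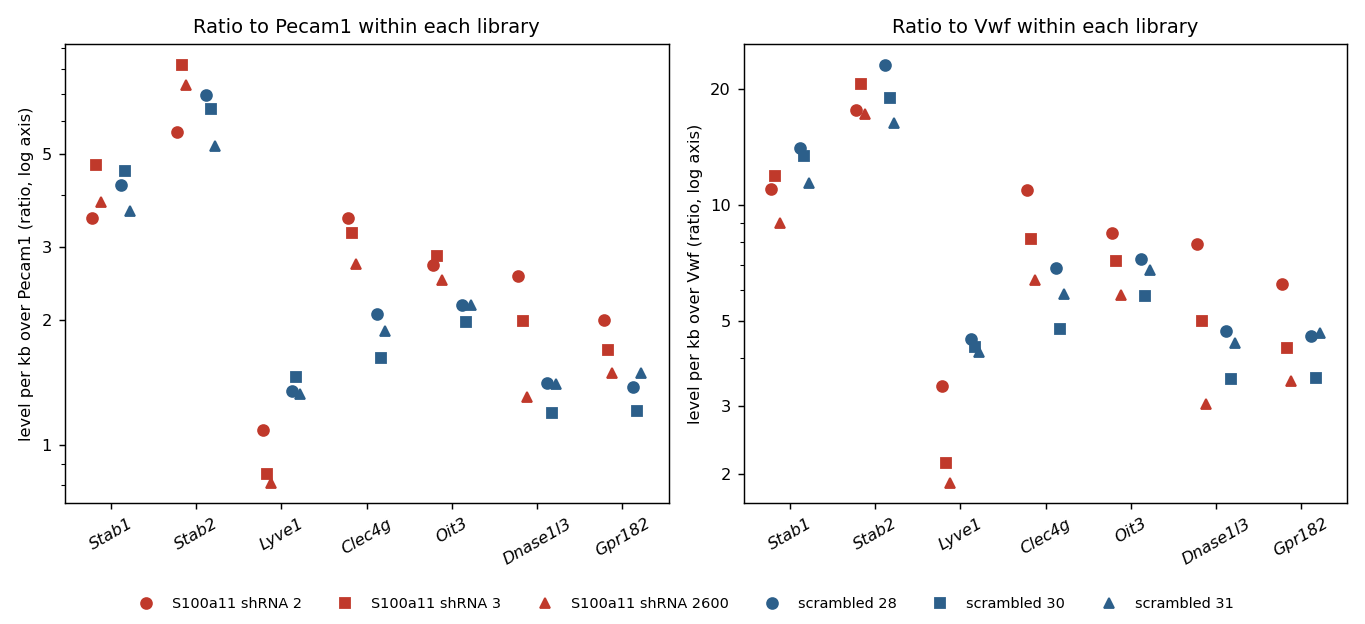
Level per kilobase of each sinusoidal member divided by that of Pecam1 (left) or Vwf (right) in the same library (y axes, log scale), for S100a11 shRNA libraries (red) and scrambled libraries (blue). Clec4g and Oit3 lie apart upward and Lyve1 apart downward over Pecam1, whereas over Vwf only Lyve1 lies apart.

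Other genes of sinusoidal endothelium, taken from a list of 22, gave 7 rises and 1 fall, beside the 5.82% and 8.28% of all genes in those directions. This list and those below were written with earlier results of these data known. A list count set beside the share of all genes is therefore a description only. The median log2 change of the list was 0.09, against 0.04 for all genes. Here and in the lists below, the genes named first had the smallest p, so their changes are not typical of a list. Cdh13, which encodes T-cadherin, rose 2.84-fold (11.4 ± 1.51 against 3.99 ± 0.34 CPM, SD, n = 3 each, edgeR adjusted p = 0.0035). Kit, the stem cell factor receptor found on pericentral sinusoidal cells and mast cells, rose 2.08-fold (23.0 ± 2.01 against 11.04 ± 0.45 CPM, adjusted p = 0.0045). Bmp2, the endothelial ligand that induces hepcidin in hepatocytes, rose 1.62-fold (33.8 ± 2.23 against 20.9 ± 1.83 CPM, adjusted p = 0.013). Wnt2, a Wnt ligand of central endothelium, rose 2.63-fold (3.48 ± 0.35 against 1.32 ± 0.28 CPM, adjusted p = 0.0083). Chosen after their values were seen, the other rises were Wnt9b, Ehd3 and Plxnc1 and the fall was Efnb2, the arterial ephrin (7.22 ± 1.63 against 12.5 ± 1.96 CPM, adjusted p = 0.039). The scavenger and regulator genes Mrc1, Fcgr2b, Gata4 and Maf, also chosen so, had log2 changes between 0.00 and 0.07. With library totals alone the list gave 4 rises and 4 falls, beside 2.05% and 20.5% of all genes, and Cdh13, Kit, Wnt2 and Wnt9b were the rises. Leaving out 1 library at a time gave 3 to 8 rises and 0 to 2 falls, beside 1.12% to 9.13% and 2.54% to 12.0% of all genes. The rises numbered 4 without library 3 and 3 without scrambled library 30. The Bmp2 call was lost with library totals alone (adjusted p = 0.13) and without library 3 or 30, and that of Efnb2 without library 3, 28, 30 or 31 (0.054 to 0.14).

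Genes of ordinary and capillarised vessels, a list of 25, gave 8 falls and 0 rises with edgeR, beside 8.28% of all genes lower. This list too was written with earlier results of these data known, so the excess over that share is no independent support. The unadjusted p was under 0.05 for 12 lower and 1 higher gene, beside 5750 of all 19352 genes in either direction. DESeq2 and limma voom called 9 and 8 lower and 0 higher. By sign alone 21 were lower and 4 higher, with a median log2 change of -0.56. Esm1, encoding endocan, a secreted proteoglycan of sprouting endothelial tip cells, fell 5.39-fold (0.98 ± 0.34 against 5.33 ± 1.18 CPM, SD, n = 3 each, edgeR adjusted p = 0.0035). Sparcl1, a matricellular protein also made by mural cells, fell 4.69-fold (5.63 ± 1.62 against 26.5 ± 8.09 CPM, adjusted p = 0.0045). The apelin receptor gene Aplnr fell 4.39-fold at a low level (0.10 ± 0.018 against 0.46 ± 0.11 CPM, adjusted p = 0.014), and the arterial semaphorin Sema3g fell 2.94-fold (0.58 ± 0.078 against 1.71 ± 0.57 CPM, adjusted p = 0.019). Esm1, Sparcl1, Aplnr and Sema3g were named for the smallest p in the list, so their folds are not typical of it. Also chosen after their values were seen, Cd34, Cavin1, Gja5 and Cxcr4 were the other falls, and Plvap, Emcn and Selp did not pass (log2 changes of -0.25, 0.04 and 0.11).

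The falls numbered 14 with library totals alone, 11 without the library labelled S100a11 shRNA 2, 4 without library 2600 and 2 without library 3. Of all genes 20.5%, 12.0%, 6.29% and 2.96% were lower in those settings. Without scrambled library 30 or 31 the falls numbered 2 each, beside 2.54% and 3.47% of all genes. Esm1 and Sparcl1 passed in all 6 omissions, while Aplnr and Sema3g were lost without library 3, 30 or 31 (adjusted p of 0.058 to 0.083). Several of these genes are also active in leukocytes or mesenchymal cells. Of 10 monocyte-derived macrophage markers, all 10 fell, beside 8.28% of all genes lower. Leaving out each library gave 7 to 10 falls, beside 2.54% to 12.0% of all genes. Their summed level was 113 to 220.1 CPM in S100a11 shRNA libraries and 593 to 725 CPM in scrambled libraries. Of 12 stellate cell and fibroblast markers 7 fell (summed level 541 to 865 and 1086 to 1509 CPM), beside the same shares of all genes. Only 3 fell without library 3, 2600 or 28 and 2 without library 30 or 31. All 7 cholangiocyte markers fell (summed level 122 to 140.2 and 467 to 574 CPM), and 1 of 5 lymphatic markers fell (Pdpn, 0.51 ± 0.37 against 1.82 ± 0.16 CPM, adjusted p = 0.037; summed level 609 to 698 and 509 to 617 CPM). The Pdpn call was lost without library 3, 28, 30 or 31 (adjusted p of 0.062 to 0.13). The lymphatic sum comes almost wholly from genes other than Pdpn, and was not shown to come from lymphatic cells. Reln is in both the lymphatic and the stellate list, and Spp1 in both the macrophage and the cholangiocyte list, so these counts and sums are not separate. No marker in these lists was at 0 in all libraries. Their part in the result was not tested.

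Genes common to all endothelium, a list of 25, gave 1 rise and 1 fall, beside 5.82% and 8.28% of all genes, and a median log2 change of 0.10. Without the library labelled S100a11 shRNA 2 there were 3 rises and 2 falls, beside 9.13% and 12.0% of all genes. The number of rises moved from 1 in 13 alternatives and stayed in 3, and that of falls moved in 11 and stayed in 5. Ptprb, the vascular receptor phosphatase VE-PTP, rose 1.52-fold (385 ± 71.8 against 254 ± 16.2 CPM, SD, n = 3 each, edgeR adjusted p = 0.047). Among other settings, Ptprb did not pass with library totals alone (adjusted p = 0.28), without the 20 most abundant genes, or without library 3, 2600, 28, 30 or 31 (0.099 to 0.17). Cd93, a C-type lectin-like receptor of endothelium and myeloid cells, fell 1.76-fold (22.8 ± 7.41 against 40.2 ± 5.65 CPM, adjusted p = 0.043), a call also lost without any one of those 5 libraries (0.077 to 0.14). Fli1 and Tal1, transcription factors of endothelial and blood cells, followed by p with log2 changes of -0.50 and 0.61 (adjusted p = 0.059 and 0.084). The VE-cadherin gene Cdh5, chosen after its values were seen, stood at 60.3, 51.6 and 68.7 CPM in S100a11 shRNA libraries 2, 3 and 2600, against 68.3, 61.5 and 75.9 CPM in scrambled libraries 28, 30 and 31 (log2 change -0.19, adjusted p = 0.45). The summed level of the list was 934 to 1190.4 CPM in S100a11 shRNA libraries and 870 to 919.5 CPM in scrambled libraries.

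Ligands and receptors around Kdr gave 1 fall and 0 rises with edgeR among 12 tested of 13, beside 8.28% and 5.82% of all genes. The unadjusted p was under 0.05 for 3 lower and 2 higher genes, beside 5750 of all 19352 genes in either direction. DESeq2 called 2 lower and 1 higher and limma voom 1 lower and 0 higher. Angpt1, the ligand that activates the Tie2 receptor and is made by mural cells, fell 2.76-fold (1.61 ± 0.16 against 4.46 ± 0.77 CPM, SD, n = 3 each, edgeR adjusted p = 0.0061). Its antagonist Angpt2, the co-receptor Nrp1 and the Kdr ligand Vegfa had log2 changes of -0.71, 0.45 and 0.57 and did not pass (adjusted p = 0.061, 0.071 and 0.11). Without library 2 this set gave 1 rise and 2 falls, beside 9.13% and 12.0% of all genes. In the BMP9 and BMP10 pathway, which acts on endothelium through the receptor ALK1, 1 of 10 genes fell. This was Acvrl1, the ALK1 gene (7.50 ± 1.14 against 12.2 ± 0.89 CPM, adjusted p = 0.027), a call lost without library 3, 2600, 28, 30 or 31 (0.058 to 0.10). Without library 2 this pathway gave 1 rise and 2 falls, beside the same shares of all genes. Id2, Bmp10 and Smad6 followed by p with log2 changes of -0.71, 0.87 and -0.43 (adjusted p = 0.0999, 0.11 and 0.16). With library totals alone 4 genes of the first set and 3 of the second fell, beside 20.5% of all genes.

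Markers of other cells that carry members were read beside them. Lyve1, Stab1 and Pecam1 are also found on macrophages. Of 12 Kupffer cell markers 1 rose and 1 fell, beside 5.82% and 8.28% of all genes. By sign alone 4 were higher and 8 lower, with a median log2 change of -0.41, against 0.04 for all genes. With library totals alone 1 rose and 4 fell, beside 2.05% and 20.5% of all genes. The summed level of these markers was 333 to 757 CPM in S100a11 shRNA libraries and 596 to 896 CPM in scrambled libraries. The phosphatidylserine receptor gene Timd4 rose 4.98-fold (8.89 ± 1.56 against 1.78 ± 0.53 CPM, SD, n = 3 each, edgeR adjusted p = 0.0033), and the complement gene C1qb fell 1.91-fold (60.2 ± 18.9 against 114.9 ± 22.0 CPM, adjusted p = 0.036). The C1qb call was lost without library 3, 2600, 28, 30 or 31 (adjusted p of 0.071 to 0.12), and without library 2 the list gave 3 rises and 2 falls. Cd163 and C1qc, next by p, did not pass (adjusted p = 0.058 and 0.073). Platelets and megakaryocytes carry Vwf and Pecam1, and 0 of 7 tested markers passed with edgeR (summed level 7.33 to 15.0 and 8.96 to 10.3 CPM). At an unadjusted p under 0.05, 2 were lower, beside 5750 of all 19352 genes in either direction. DESeq2 called 1 lower and limma voom 0. The summed platelet level was highest in library 2600, as was Vwf. Of 8 hepatocyte markers 2 rose, Serpina1c and Cyp2e1, and all 8 were higher by sign with TMM. The part of these cells in the members' values was not tested.

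**Figure D5:**
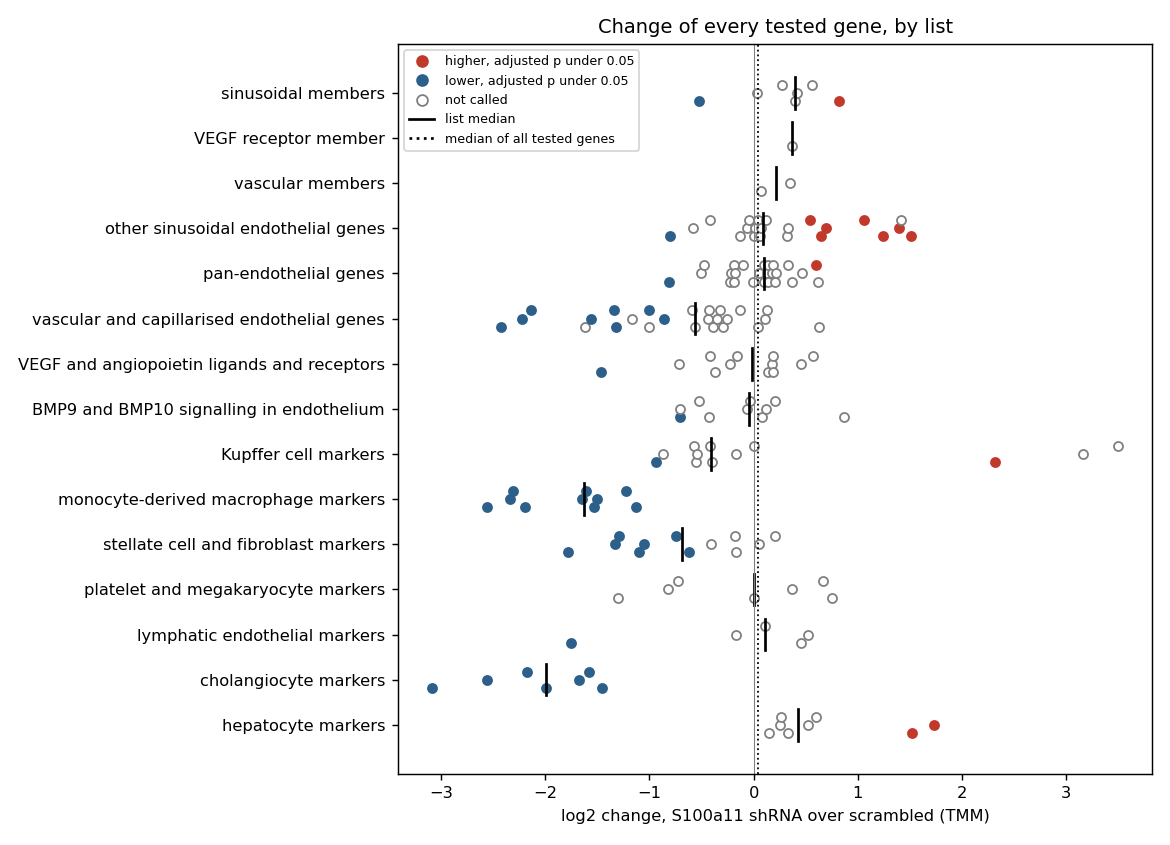
Log2 change (x axis, S100a11 shRNA over scrambled, TMM) of every tested gene in each list (rows); filled red and blue points passed an adjusted p of 0.05 upward and downward, black bars are list medians and the dotted line is the median of all tested genes. Called sinusoidal genes lie mostly to the right and called vascular and capillarised genes all to the left of the dotted line, with macrophage, stellate and cholangiocyte markers also to the left.

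Across the 6 libraries, the genes most like the mean log2 CPM of the 7 sinusoidal members among 12640 genes were Palld, Eapp, Adrm1, Sbds and Gramd3 (Pearson r of 0.989 to 0.991). Those most like Vwf were Mroh6, Zfhx3, Gnrh1, Prrc2b and Dpp9 (r of 0.9799 to 0.993). The 6 points share the group difference and the library scaling, so the likeness is a description only. Mroh6 followed Vwf in standing highest in library 2600 (2.79, 6.12 and 21.2 CPM in S100a11 shRNA libraries 2, 3 and 2600, against 3.15, 3.47 and 3.43 CPM in scrambled libraries 28, 30 and 31). None of these 10 genes passed the threshold between the groups with edgeR (lowest adjusted p 0.072). Each of the 5 like the sinusoidal mean was higher in all S100a11 shRNA libraries than in all scrambled ones, beside 16.5% of all tested genes. That follows in part from their choice, since 4 of the 7 sinusoidal members also lay apart upward.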

How the data were processed

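Per the labels' protocols, ribosomal RNA was depleted and stranded libraries were prepared from total liver RNA. The authors deposited raw, whole-number counts for each Ensembl gene. The genome build was mm10, per the submitters' processing notes. The sources used here name no aligner, counter or strand setting. The authors' gene length in bases, of a kind not stated (unit other), was used for values per kilobase. It equalled the merged length of all annotated exons (GENCODE M21) for every member except Lyve1 and Kdr. Merged exons can be longer than the transcript present, so ranks per kilobase between members are approximate.

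In edgeR 4.0.16 (R 4.3.3), filterByExpr (minimum count 10, minimum total 15) kept 19352 genes, TMM factors scaled libraries, and the quasi-likelihood F test (glmQLFit with legacy = FALSE, glmQLFTest) compared the groups, with Benjamini-Hochberg adjustment over all tested genes and a threshold of 0.05. SE is the log2 change over the root of F. Alternatives used RLE and upper-quartile factors, library totals alone, other filters, no top 20 genes, DESeq2 1.42.0, limma voom 3.58.1, an adjusted p of 0.1, and omission of each library. The legacy quasi-likelihood was added after seeing the data. No 2 libraries agreed within counting noise (lowest chi-square per gene over pairs 48.4).

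Members and lists were chosen with earlier results of these data known. Named genes were the members, S100a11, the 4 members of each list with the smallest p (called ones too where 4 or fewer), and the 5 genes most correlated with the sinusoidal mean or Vwf (log2 CPM with a prior count of 2, mean of at least 1 CPM). Of 161 list genes all matched, 4 through Ensembl identifiers. Simulated data had these libraries' means and spread (19037 genes tested), with 56, 73 and 71 genes changed 1.5-fold, 2-fold and 4-fold. The test called 3.57%, 39.7% and 93.0% of these changes, and 10.2% of 108 calls were false.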

Additional observations from a re-analysis of the deposited data

How the results depend on the processing

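Clec4g stayed higher and Lyve1 lower in all alternatives. The Clec4g call was lost without scrambled library 30, and that of Lyve1 without a filter and without 5 of the libraries, as given above. The number of members called higher, 1, became 3 with DESeq2, 4 at an adjusted p of 0.1, and 0 to 2 when leaving out each library. The number called lower, 1, became 0 without a filter, which tested more genes, and 0 to 1 when leaving out each library. Among unpassed members the sign turned for Stab1 with upper-quartile factors (-0.066) and library totals alone (-0.34), for Pecam1 with the same scalings (-0.020 and -0.30), and for Stab2 (-0.10) and Vwf (-0.033) with library totals alone. Leaving out each library gave -0.11 to 0.15 for Stab1 and -0.10 to 0.14 for Pecam1. The change of S100a11 passed without the library labelled S100a11 shRNA 2 (-2.75, adjusted p = 0.00044), with library totals alone (-1.90), with limma voom (-1.89) and at 0.1 (-1.57). It ranged from -2.75 to -1.22 when leaving out each library. Over all genes the 1126 higher and 1602 lower calls became 397 and 3970 with library totals alone, 816 and 1980 with upper-quartile factors, and 1819 higher at 0.1. Leaving out each library gave 221 to 1806 higher and 503 to 2370 lower. Of 90 tested genes in the 5 other endothelial lists the 8 higher and 12 lower calls became 4 and 28 with library totals alone, and 3 to 13 and 3 to 19 when leaving out each library. Where a fit had fewer samples or another scaling, no further cause was tested. No paired analysis was possible because the groups share no replicate numbers. With 3 libraries a group, the simulation recovered few changes of 1.5-fold, and 9 of the 10 members differed by less. It changed far fewer genes than the 2728 called here, and drew them from all tested genes. It therefore cannot tell how likely a change in these members was to be called.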
